A study of Mus musculus with 4 samples.

Results

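SATB1, CTCF and cohesin are the proteins that fold chromosomes in T cells, and the expression of 9 of their genes was examined in splenic CD4+ T cells: *Satb1* itself, *Ctcf*, the cohesin subunit genes *Rad21*, *Smc1a*, *Smc3*, *Stag1* and *Stag2*, the cohesin loader gene *Nipbl* and the cohesin release gene *Wapl*. The 9 genes were chosen by name, and all 9 were found among the 55367 gene symbols counted in each library and passed the filter on low counts. The RNA came from peripheral CD4+ T cells of C57BL/6 mice, with 2 libraries labelled WT and 2 labelled as *Satb1* conditional knockout (cKO). In the study's mice the floxed *Satb1* F/F allele is deleted by a *Thpok-cre* transgene, which acts once thymocytes commit to the CD4 lineage and therefore covers conventional and regulatory CD4+ T cells alike. No treatment was given. The labels state neither age nor sex, and the study's methods describe young adult mice of both sexes in general. Sex-linked transcripts had a female pattern in both WT libraries and a male pattern in both cKO libraries, as given below. Whether the WT mice carried Cre or floxed alleles is not given in the sources used here.

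SATB1 binds AT-rich DNA and tethers distant loci in thymocytes and T cells. Cohesin is a ring built from SMC1A, SMC3 and RAD21, with either STAG1 or STAG2 bound to it, and NIPBL drives it along DNA so that loops are extruded until the ring meets CTCF on its binding sites or is released by WAPL. The question put to the data was whether any other gene of this machinery differed in expression where *Satb1* is labelled deleted.

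None of the 9 genes passed the test for a difference between the genotypes. The edgeR quasi-likelihood test called 0 of 9 at an adjusted p under 0.05, where it called 4.30% of the 12403 genes tested (533 genes). Of all tested genes, 2.35% were called with a rise and 1.95% with a fall in the libraries labelled cKO. The count was also 0 of 9 at an adjusted p under 0.1, against 7.78% of all genes tested, and at an unadjusted p under 0.05, against 19.1%, and DESeq2 and limma-voom each called 0 of 9, where they called 427 and 483 genes in all. The fitted log2 fold changes of the 9 genes lay between -0.13 and 0.07, with a median absolute value of 0.06 against 0.19 over all tested genes. The 95% intervals of the fold ran from 0.786 at the lowest bound (*Smc1a*) to 1.26 at the highest (*Nipbl*), so a change of 1.5-fold in either direction lay outside the interval of each of the 9 genes. The count over all genes depended on single libraries, with 180 genes called without WT 2, 1491 without cKO 1 and 1790 without cKO 2, while the count of the 9 stayed at 0 in each of these fits.

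**Figure D1:**
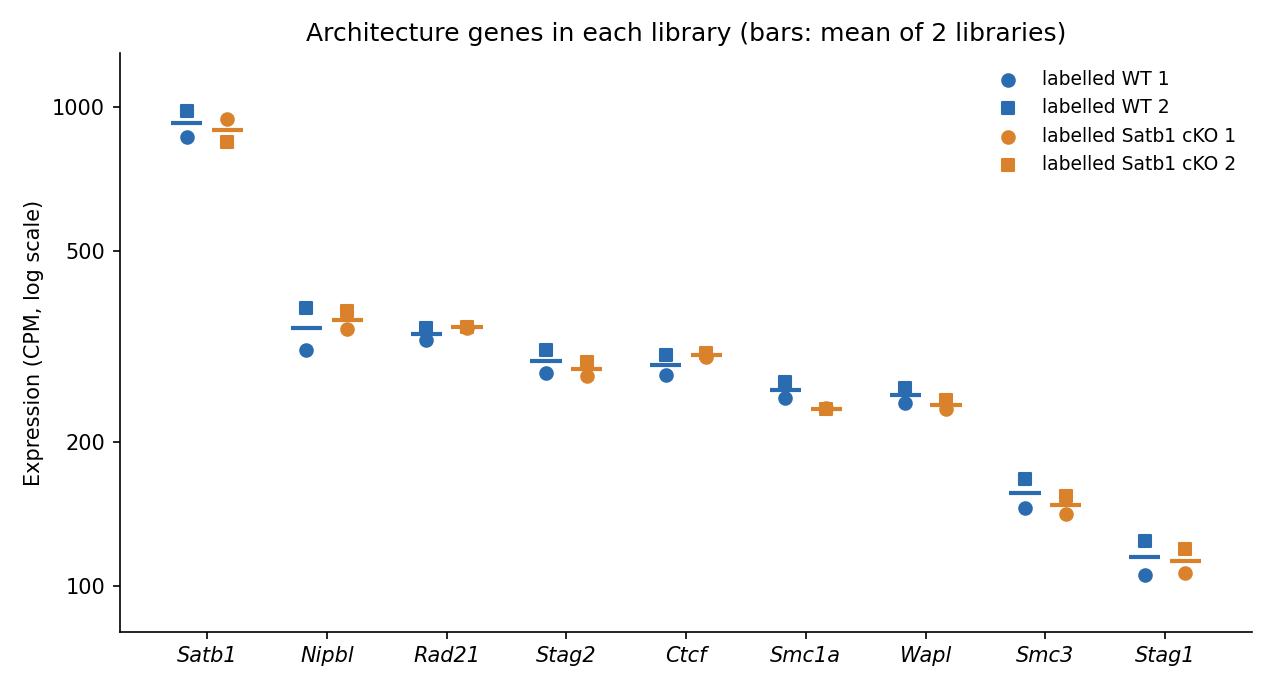
Expression of the 9 genes in CPM (log axis), with 1 point per library, colour for the labelled genotype and a bar at the mean of 2 libraries. The genotypes overlap for each gene except *Smc1a*, where both libraries labelled cKO (235 and 234 CPM) lie under both labelled WT (247 and 266 CPM).

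**Figure D2:**
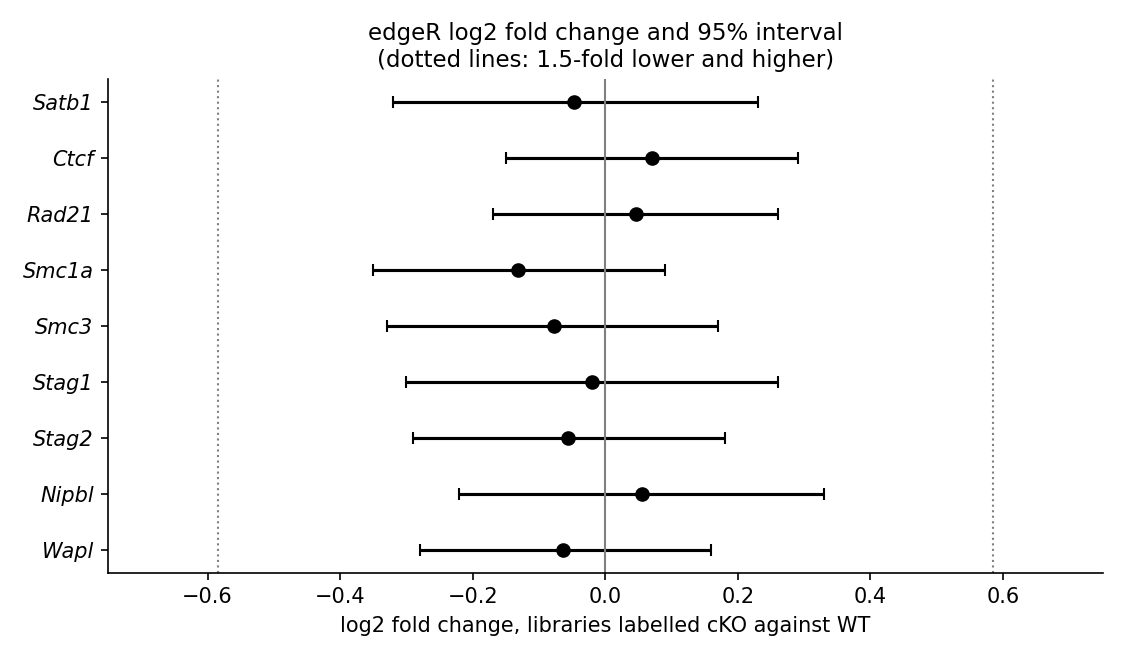
Fitted log2 fold change of each gene (points) with its 95% interval (bars), libraries labelled cKO against WT, and dotted lines at a 1.5-fold difference. All 9 intervals include 0 and end inside the dotted lines.

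*Satb1* was examined first in every library, as the gene named in the genotype label. Its expression, as CPM (counts scaled to a library of 1e+06), was 868 and 984 CPM in the libraries labelled WT and 945 and 847 CPM in those labelled cKO. The genotypes overlapped, and the fitted difference was -0.05 on the log2 scale (SE 0.12, edgeR adjusted p = 0.877). The transcript count of *Satb1* thus does not set the libraries labelled cKO apart, and directions here follow the labels. The count sums 14 annotated transcripts, and expression by exon was not analysed here. *Foxp3*, the gene of the factor that defines regulatory T cells, had 926 and 538 counts in the libraries labelled WT and 2127 and 2573 in those labelled cKO, a rise of 1.86 on the log2 scale (edgeR adjusted p = 0.000447). The genes closest to *Satb1* in their profile over the 4 libraries were *Dcaf8*, *Atp6ap2* and *Trbc1*, with root mean square differences of 0.012, 0.0162 and 0.0169 in centred log2 CPM. So flat a profile was common, since 1236 of the 6055 genes compared were within 0.1 of *Satb1*.

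*Ctcf*, which encodes the zinc finger protein that halts cohesin at its binding sites, was expressed at 276 and 304 CPM in the libraries labelled WT and 301 and 307 CPM in those labelled cKO. The mean was 290 ± 19.9 CPM (SD, n = 2) in WT and 304 ± 4.31 CPM (SD, n = 2) in cKO. The difference of 0.07 on the log2 scale (SE 0.10, edgeR adjusted p = 0.757) was smaller than the gap of 0.14 between the WT libraries. The cKO libraries, at 301 and 307 CPM, lay closer together than the WT libraries. Of the exonic sequence of *Ctcf*, 7.61% overlaps *Agrp* and *Gm5914* on the opposite strand, the largest such share among the 9 genes, so its count is uncertain by reads from that overlap.

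Of the ring itself, *Rad21*, the gene of the subunit that closes the ring and is cut by separase at anaphase, varied least. It was measured at 326 and 346 CPM in WT and 346 and 348 CPM in cKO, a 1.07-fold range over all 4 libraries, with a log2 fold change of 0.05 (SE 0.10, edgeR adjusted p = 0.841). *Smc3*, which encodes the subunit whose acetylation stabilises the ring, was at 145 and 167 CPM in WT and 141 and 154 CPM in cKO. Those values overlapped between the genotypes, and the log2 fold change was -0.08 (SE 0.11, edgeR adjusted p = 0.765).

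*Smc1a*, the gene of the partner subunit of SMC3, was the member nearest to a difference. It had 247 and 266 CPM in WT against 235 and 234 CPM in cKO, with means of 257 ± 12.9 and 234 ± 0.819 CPM (SD, n = 2 each). It was the only 1 of the 9 genes whose libraries did not overlap between the genotypes, where 50.3% of all tested genes did not overlap and 25.4% did so with lower values in cKO. The log2 fold change of -0.13 (SE 0.10) did not pass the test, with an edgeR adjusted p = 0.51 and 4926 tested genes at a lower p.

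*Smc1a* and *Stag2* lie on the X chromosome, and sex-linked transcripts differed between the genotypes in these libraries. *Xist*, the RNA that coats the inactive X, had 5447 and 4235 counts in WT against 9 and 6 in cKO, and the Y-linked genes *Ddx3y*, *Eif2s3y*, *Kdm5d* and *Uty* had at most 1 count in a WT library and at least 138 in a cKO library. Both WT libraries thus had the female pattern of these transcripts, and both cKO libraries the male pattern. Genotype and sex-linked pattern cannot be told apart for any gene compared here, the called genes *Foxp3*, *Pttg1*, *Ncapd2* and *Ncapg* included. Among X-linked genes known to escape X inactivation, *Kdm6a* fell by 0.74 (edgeR adjusted p = 0.00626) and *Kdm5c* fell by 0.43 (adjusted p = 0.0435) on the log2 scale, while *Eif2s3x*, at -0.57 (adjusted p = 0.0705), and *Ddx3x*, at -0.35 (adjusted p = 0.0819), did not pass. Over the 370 X-linked genes tested the median log2 fold change was 0.0026, with 6.49% called, against -0.0013 and 4.18% over 11816 autosomal genes. The values of -0.13 for *Smc1a* and -0.06 for *Stag2* lay between the quartiles of X-linked genes, which were -0.20 and 0.22.

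STAG1 and STAG2 are alternative subunits that share a position on the ring, so reads from their related genes could in principle be confused. The longest run of identical bases in their coding sequences is shown here with its flanks, because it bears on how well 50-base reads separate the genes. In GENCODE M21 on GRCm38 the stretch is spliced from coding exons 10 to 12 of each gene, within chr9:100845098-100855798 for *Stag1* (ENSMUST00000129269.7) and chrX:42229206-42233872 for *Stag2* (ENSMUST00000115073.8), both on the plus strand. Capitals mark the bases that differ.
Stag1: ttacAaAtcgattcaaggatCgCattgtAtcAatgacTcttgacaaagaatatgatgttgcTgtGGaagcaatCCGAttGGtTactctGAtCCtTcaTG
Stag2: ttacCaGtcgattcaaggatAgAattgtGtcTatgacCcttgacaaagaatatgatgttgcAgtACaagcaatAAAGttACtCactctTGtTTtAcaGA
The longest run without a difference between the coding sequences was 23 bases, under the read length of 50, and 24 of these 99 bases differ. No 50-base word was shared between annotated transcripts of *Stag1* and *Stag2*.

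*Stag2* was expressed at 279 and 311 CPM in WT and 274 and 293 CPM in cKO. *Stag1* had 105 and 124 CPM in WT and 106 and 119 CPM in cKO. Both overlapped between the genotypes, with log2 fold changes of -0.06 (SE 0.10, edgeR adjusted p = 0.823) for *Stag2* and -0.02 (SE 0.12, edgeR adjusted p = 0.957) for *Stag1*. As a share of the counts of both genes, not corrected for length and given to compare libraries, *Stag1* took 27.3% in WT 1 (exact binomial 95% interval 25.5 to 29.1), 28.5% in WT 2 (26.5 to 30.5), 27.8% in cKO 1 (25.9 to 29.9) and 28.9% in cKO 2 (26.9 to 31.0). All 4 intervals overlap. These intervals treat each read as independent and leave out variation between mice. They may be too narrow even for counting error, because the libraries carried no molecular identifiers and reads may be copies of the same molecule. Per kb of exonic length the ratio of *Stag1* to *Stag2* was 0.263 and 0.279 in WT and 0.271 and 0.285 in cKO.

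The regulators of the ring also did not pass the test. *Nipbl*, the gene of the loader, had 311 and 381 CPM in WT and 344 and 375 CPM in cKO, the widest spread of the 9 genes with a 1.23-fold range. That spread lay mostly between the WT libraries, and the log2 fold change was 0.06 (SE 0.12, edgeR adjusted p = 0.853). *Wapl*, the gene of the release factor, had 241 and 259 CPM in WT and 234 and 244 CPM in cKO, with a log2 fold change of -0.06 (SE 0.10, edgeR adjusted p = 0.78).

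Ratios between members within a library do not depend on how libraries are scaled, and 5 were compared. The log2 ratio per kb of *Nipbl* to *Wapl* was -0.14 and 0.05 in WT and 0.05 and 0.11 in cKO, and that of *Smc1a* to *Smc3* was 0.72 and 0.61 in WT and 0.67 and 0.55 in cKO. Differences between the genotypes were 0.036 for *Stag1* to *Stag2*, -0.055 for *Smc1a* to *Smc3*, 0.123 for *Nipbl* to *Wapl* and 0.024 for *Ctcf* to *Rad21*, and the genotypes overlapped in each of these 4 ratios. The ratio of *Rad21* to *Smc3* did not overlap, at 1.56 and 1.44 in WT and 1.68 and 1.57 in cKO, a difference of 0.123. That gap is narrow, with 1.56 in WT 1 beside 1.57 in cKO 2. No test was run on the ratios. An exact two-sided permutation test of 2 libraries against 2 cannot give a p under 0.333.

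**Figure D3:**
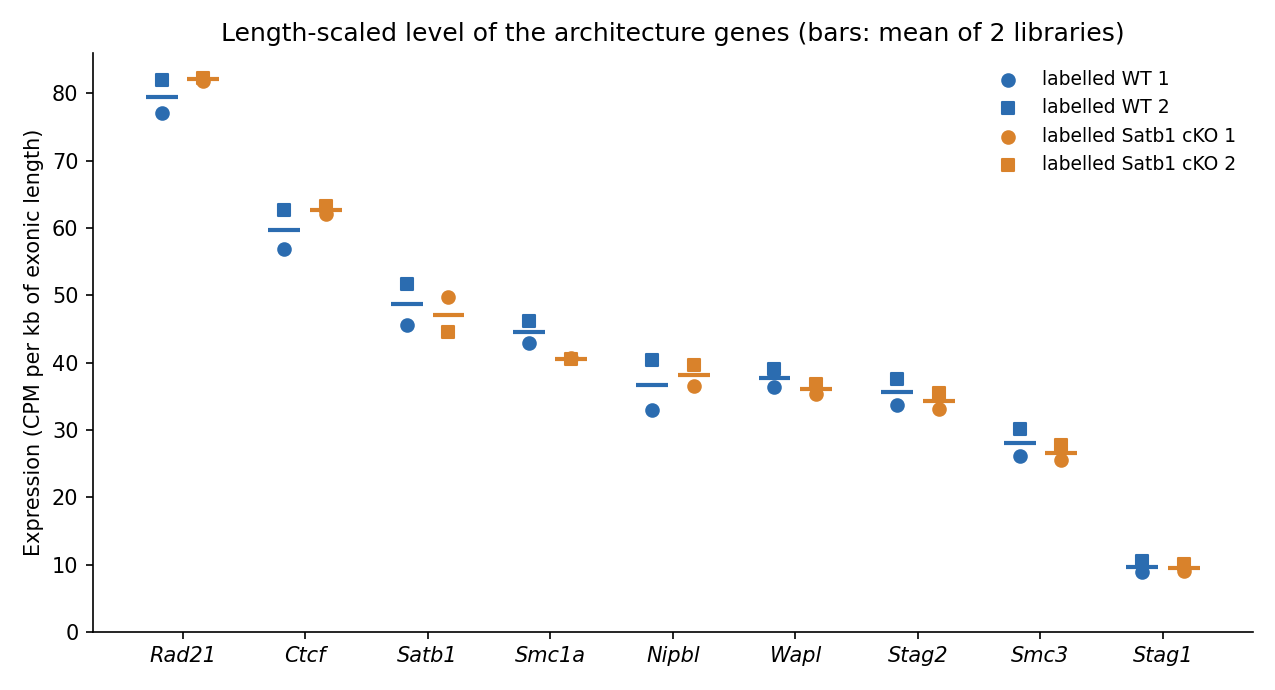
Level of the 9 genes in CPM per kb of exonic length (linear axis from 0), with 1 point per library, colour for the labelled genotype and a bar at the mean of 2 libraries. *Rad21* is highest at 77.0 to 82.3 and *Stag1* lowest at 8.88 to 10.5 CPM per kb in both genotypes.

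Levels of the 9 genes were ranked per kb of exonic length, taken over all annotated transcripts. *Rad21* was highest, with a mean of 80.7 CPM per kb over the 4 libraries, followed by *Ctcf* (61.1), *Satb1* (47.9), *Smc1a* (42.5), *Nipbl* (37.4), *Wapl* (36.9), *Stag2* (35.0), *Smc3* (27.4) and *Stag1* (9.62). Libraries of neighbours in this order overlapped for *Satb1* and *Smc1a*, for *Nipbl* and *Wapl* and for *Wapl* and *Stag2*, so those neighbours did not separate beyond the spread of the libraries. Within a library, *Satb1* was above *Smc1a* in 4 of 4, *Nipbl* above *Wapl* in 3 of 4 and *Wapl* above *Stag2* in 4 of 4. The lead of *Rad21* over *Ctcf* and the low level of *Stag1* were outside the spread of the libraries. That spread does not measure error from the length used. The exonic length is 11781 bases over 17 transcripts for *Stag1* and 8273 over 8 for *Stag2*. The coding sequences compared above are of 3774 and 3804 bases, so the level of *Stag1* beside *Stag2* depends on the length chosen. The exonic length of *Satb1*, 19027 bases, is the longest of the 9 and sums exons of alternative transcripts, which lowers its level per kb where those exons are little used.

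The other genes of chromosome architecture were taken from 5 lists with 60 genes in all, of which 54 passed the filter on low counts. Of these 54, 3 were called, or 5.56%, 1 with a rise and 2 with a fall, beside 4.30% of all tested genes. The median log2 fold change of the 54 was -0.07, beside -0.0015 over all tested genes. The number called moved to 8 without cKO 1, 19 without cKO 2, 12 without a filter on low counts and 11 with the replicate block, fits that called 1491, 1790, 1367 and 1165 genes in all.

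**Figure D4:**
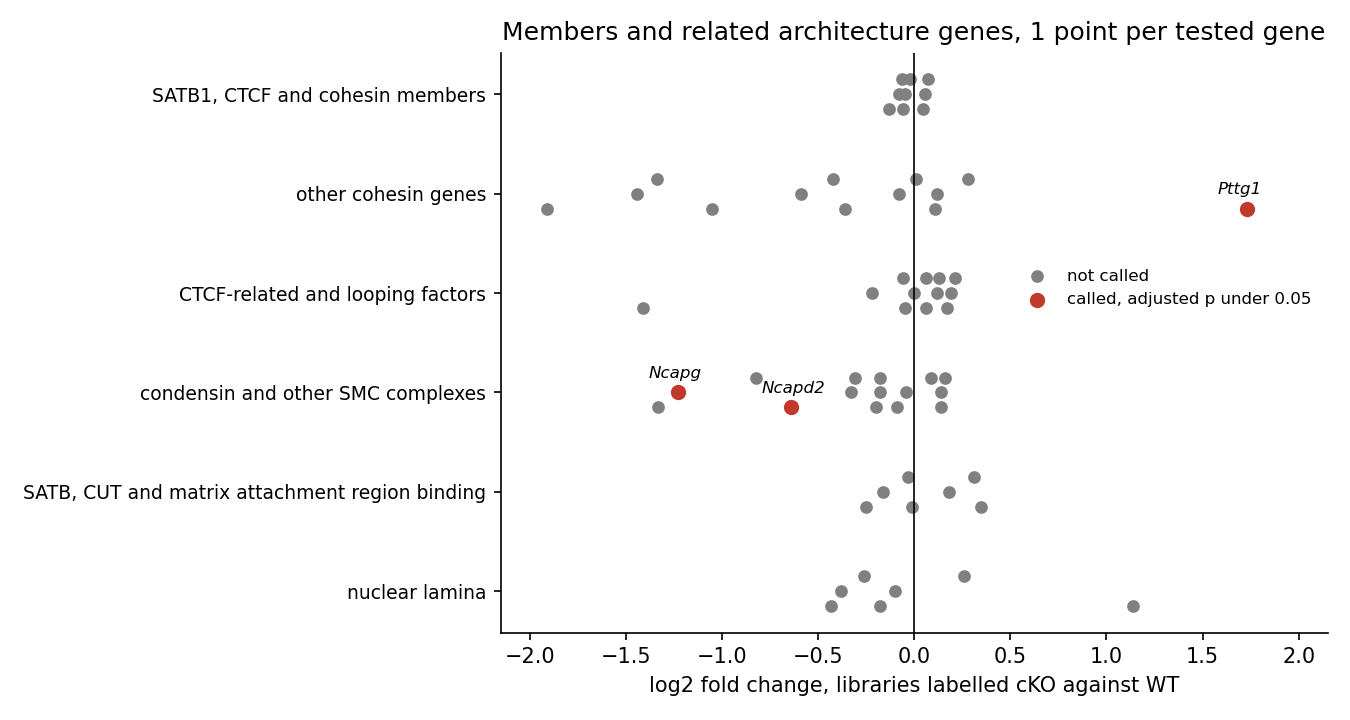
Fitted log2 fold change of the 9 genes (top row) and of the tested genes in 5 lists of related architecture genes, libraries labelled cKO against WT, with 1 point per gene spread vertically for legibility. Red points mark the called genes *Pttg1*, *Ncapd2* and *Ncapg*, and the 9 genes lie between -0.13 and 0.07.

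Among the other cohesin genes, 1 of 13 tested was called, or 7.69%, beside 4.30% of all tested genes. The count moved to 5 without cKO 2, 4 without a filter on low counts and 3 with the replicate block, fits that called 1790, 1367 and 1165 genes in all. The median log2 fold change of the 13 was -0.36, with 5 above 0, and 6 had an unadjusted p under 0.05, beside 19.1% of all tested genes. Of these 6, *Pttg1* was higher, and *Esco1*, *Esco2*, *Cdca5*, *Espl1* and *Sgo2a*, at -0.36, -1.91, -1.34, -1.44 and -1.05, did not pass after adjustment. *Pttg1*, which encodes securin, the inhibitor of the separase that cuts RAD21, rose from 11.2 and 7.62 CPM in WT to 31.1 and 32.5 CPM in cKO. The genotypes were far apart, with a log2 fold change of 1.73 (SE 0.21) and an edgeR adjusted p = 0.00329. *Pttg1* lies on the minus strand at chr11:43420250-43426251 with no exonic overlap with another annotated gene. The adjusted p of *Pttg1* stayed under 0.05 in all 13 alternative fits, and its log2 fold change ran from 1.5 without WT 2 to 2.06 without WT 1. *Espl1*, the gene of separase itself, was at 11.8 and 7.84 CPM in WT and 1.52 and 5.95 CPM in cKO and did not pass (log2 fold change -1.44, edgeR adjusted p = 0.156). *Mau2*, the partner of NIPBL, at 0.12 (adjusted p = 0.635), and the WAPL partners *Pds5a*, at 0.01 (adjusted p = 0.973), and *Pds5b*, at 0.11 (adjusted p = 0.678), did not pass either. These genes other than *Pttg1* were named after their values were seen. The germline cohesin genes *Smc1b* and *Rad21l* were at the floor in all 4 libraries, set at 3 counts in a library and equal to 0.458 to 0.667 CPM.

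In the list of condensin and other SMC complexes, 2 of 15 tested genes were called, both lower and both subunits of condensin I, the complex that compacts mitotic chromosomes. That is 13.3% of the list, beside 4.30% of all tested genes called in either direction and 1.95% called lower, and 5 of the 15 had an unadjusted p under 0.05, beside 19.1% of all tested genes. The median log2 fold change of the list was -0.18, with 4 of the 15 above 0. The calls do not set condensin I apart. *Ncapg2*, of condensin II, was at -1.33 (edgeR adjusted p = 0.0741) and *Ncaph*, of condensin I, at -0.82 (adjusted p = 0.059). Neither passed, and both are named here after their values were seen. *Ncapd2* had 112 and 106 CPM in WT and 66.5 and 74.4 CPM in cKO, and fell by 0.64 on the log2 scale (SE 0.11, edgeR adjusted p = 0.0169). *Ncapg* had 13.9 and 14.6 CPM in WT and 4.57 and 7.65 CPM in cKO, and fell by 1.23 (SE 0.28, edgeR adjusted p = 0.0478). Neither gene overlapped between the genotypes, where 50.3% of all tested genes did not overlap and 25.4% did so with lower values in cKO. The call of *Ncapg* was lost in 6 of 13 alternative fits, with adjusted p from 0.000143 to 0.226, and that of *Ncapd2* without WT 1 (0.0888) and without WT 2 (0.126) and in no other fit. Of the exonic sequence of *Ncapg*, 13.4% overlaps *Lcorl* on the opposite strand. The number called in this list moved to 0 without WT 2, 1 without WT 1, 4 without cKO 1 and 7 without cKO 2, fits that called 180, 465, 1491 and 1790 genes in all.

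Proliferation markers were also lower in the libraries labelled cKO, though not past the test. The summed level of *Mki67*, *Top2a*, *Ccnb1* and *Cdk1*, on total gene counts, was 288 and 311 CPM in WT and 59.2 and 170 CPM in cKO. All 4 had a negative log2 fold change and none passed the test, beside 4.30% of all tested genes called and 1.95% called lower. The value was lowest for *Mki67* at -1.44 (edgeR adjusted p = 0.0602). The part of dividing cells in the values of *Ncapd2* and *Ncapg* was not tested. In RNA from a mixture of cells, fewer cells of a type and less RNA per cell cannot be told apart.

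Of the CTCF-related and looping factors 0 of 12 tested were called by edgeR, beside 4.30% of all tested genes, with 1 at an unadjusted p under 0.05, beside 19.1% (*Top2a*, log2 fold change -1.41, adjusted p = 0.0601), and limma-voom called 1 (*Top2a*) and DESeq2 0. The count was 1 without WT 1, 1 without cKO 1 and 3 without cKO 2, fits that called 465, 1491 and 1790 genes in all. *Ddx5*, *Brd2* and *Ldb1*, named for the highest CPM of that list with no correction for length, had log2 fold changes of 0.06, -0.05 and 0.17, and *Ctcfl*, the germline relative of *Ctcf*, was at the floor in all libraries. For SATB, CUT and matrix attachment region binding genes the count was 0 of 7, beside 4.30% of all tested genes, with 1 at an unadjusted p under 0.05, beside 19.1% (*Cux1*, log2 fold change 0.35, adjusted p = 0.102). DESeq2 and limma-voom called 0 of this list, where they called 427 and 483 genes in all. The count changed in some fits that left out a library. The gene that entered it without WT 2 was *Cux2*, which is not among the 7 tested. *Cux2* had 110 counts in WT 1 and 0, 3 and 2 in WT 2, cKO 1 and cKO 2. *Hnrnpu*, *Safb* and *Safb2*, named by the same rule, had log2 fold changes of -0.16, 0.18 and -0.03. Among nuclear lamina genes 0 of 7 were called, beside 4.30% of all tested genes, with a median log2 fold change of -0.18, 4 at an unadjusted p under 0.05, beside 19.1% of all tested genes (*Lmna*, *Lmnb1*, *Lmnb2* and *Banf1*) and 0 called by DESeq2 and limma-voom. The count was 1 without WT 1, 2 without cKO 1 and 1 without cKO 2, where 465, 1491 and 1790 genes were called in all. *Lbr*, *Lmnb1* and *Banf1*, named likewise, were at -0.18, -0.43 (adjusted p = 0.0828) and -0.26 on the log2 scale. *Top2a*, *Cux1*, *Lmna* and *Lmnb2* are named here after their values were seen.

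The libraries held between 4495902 and 6555699 gene counts. T cell markers were high in each, with *Cd4* at 5564 to 8356 counts, and 1 of 6 was called, beside 4.30% of all tested genes: *Zbtb7b*, which encodes ThPOK, with a log2 fold change of 0.66 (edgeR adjusted p = 0.0117). Of the CD8 T cell markers, *Cd8a* had 20 to 36 counts in a library with no call, and *Cd8b1* fell by 0.91 (edgeR adjusted p = 0.0201), from 277 and 232 counts in WT to 144 and 106 in cKO. The NK cell marker *Klrd1* fell by 2.79 (edgeR adjusted p = 0.0108), from 63 and 38 counts to 10 and 3. Summed B cell markers were at 595 and 454 CPM in WT and 618 and 479 CPM in cKO, most of it *Ighm*, at a log2 fold change of 0.00. Apart from *Ighm*, 3 B cell genes were tested, with *Pax5* called higher (5, 4, 53 and 15 counts in WT 1, WT 2, cKO 1 and cKO 2, edgeR adjusted p = 0.0407) and *Cd22* (log2 fold change 1.21, adjusted p = 0.0529) and *Cd79b* (0.66, adjusted p = 0.459) not past the test. Summed myeloid markers were at 37.7 and 44.3 CPM in WT and 103 and 62.9 CPM in cKO, with 3 of 9 genes called, all higher, beside 4.30% of all tested genes called in either direction and 2.35% called higher. Summed erythroid markers were at 53.1 and 199 CPM in WT and 7.26 and 104 CPM in cKO, with neither of the 2 genes called. They differed widely within each genotype, with cKO 1 lowest. The part of these cells in the levels of the 9 architecture genes was not tested.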

How the data were processed

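RNA of splenic CD4+ T cells was sequenced as 50-base reads on an Illumina sequencer after library construction with a NEBNext Ultra kit. Per the submitters' processing notes, the authors aligned reads to mm10 with HISAT2 2.1.0 and counted them per gene with HTSeq 0.11.1, and they deposited raw counts per gene symbol with no scaling. The annotation and strand setting are not given in the sources used here. The HTSeq summary lines were left out of library sizes. Reads outside annotated features were 59.4% to 64.5% of uniquely aligned reads.

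The 9 genes and the lists of related genes were chosen with earlier results of these data known. Genes were named by rule: the 9 members, the called genes of each list or otherwise its 3 highest in CPM and those at the floor in all libraries, the 3 genes most like *Satb1* among those averaging 5 or more in log2 CPM, and sex-linked genes beside X-linked members. Some listed genes are not reported here. The study describes its duplicates as biological replicates, and the labels do not name the mice.

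The software was edgeR 4.0.16, DESeq2 1.42.0 and limma 3.58.1 under R 4.3.3, and matplotlib 3.10.9 under Python 3.11.15 for plots. After filterByExpr and TMM scaling (factors 0.981 to 1.02), genotype was tested with the two-sided edgeR quasi-likelihood F test on all 4 libraries, with no covariate and Benjamini-Hochberg adjustment over the 12403 genes tested. CPM is the count scaled to a library of 1e+06 on TMM-scaled sizes, except for summed markers. The SE is the absolute log2 fold change divided by the square root of F, and intervals are at a level of 0.95. Positions, exonic lengths and transcripts came from GENCODE M21 (GRCm38, the assembly of mm10). The procedure was checked on simulated counts. The test, scaling, filter, gene universe, depth, replicate term and set of libraries were varied one at a time.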

Additional observations from a re-analysis of the deposited data

How the results depend on the processing

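The count of called members was 0 of 9 in 12 alternative fits and at an adjusted p under 0.1, and 0 of the 7 autosomal members in the fit of autosomal genes only. Of 115 alternative values of the members, 107 kept direction and call, 8 reversed, and the lowest adjusted p was 0.358. The 8 reversals came from leaving out a library: *Satb1* at 0.04 without WT 2 and 0.03 without cKO 2, *Smc3* at 0.02 and *Stag2* at 0.02 without WT 2, *Stag1* at 0.10 without WT 2 and 0.07 without cKO 1, and *Nipbl* at -0.08 without WT 1 and -0.0025 without cKO 2. Over all fits that left out a library, the log2 fold change ran from -0.13 to 0.04 for *Satb1*, -0.17 to 0.02 for *Smc3*, -0.13 to 0.10 for *Stag1*, -0.13 to 0.02 for *Stag2*, -0.08 to 0.20 for *Nipbl*, 0.0076 to 0.14 for *Ctcf*, 0.0094 to 0.09 for *Rad21*, -0.11 to -0.01 for *Wapl* and -0.18 to -0.08 for *Smc1a*. A library left alone in its genotype is assumed to vary like the others.

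The count of all called genes was 1367 with no filter on low counts, 1165 with the replicate block, and 180 to 1790 when a library was left out. With no low-count filter the calls were 4 in other cohesin genes, 1 in CTCF-related, 4 in condensin, 1 in SATB and CUT, 2 in lamina genes and 12 in all lists. With the replicate block they were 3, 1, 4, 1, 2 and 11 in the same order. CTCF-related calls were 1 under limma-voom, the 1 CPM filter and thinning, fits that called 483, 558 and 591 genes in all. Condensin calls were 1 under DESeq2, total count scaling, autosomal genes only and thinning, fits that called 427, 544, 474 and 591 genes in all. When a library was left out, calls ran from 1 to 5, 0 to 3, 0 to 7, 0 to 3, 0 to 2 and 2 to 19 in the same order. For these counts the cause was not tested. Without each library in turn the difference in log2 ratio changed sign for *Stag1* to *Stag2* (-0.007 to 0.079), *Smc1a* to *Smc3* (-0.118 to 0.009) and *Ctcf* to *Rad21* (-0.002 to 0.05), and ran from 0.029 to 0.217 for *Nipbl* to *Wapl* and 0.064 to 0.182 for *Rad21* to *Smc3*. Under thinning to 4495902 counts these were 0.008, -0.102, 0.039, 0.095 and 0.105. Same-numbered libraries share only a number, and their deviations correlated by 0.0642 across genes. Scaling moved the median of all genes by under 0.01.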

Other observations

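*Cux2*, a gene of the SATB, CUT and matrix attachment region list that did not pass the filter on low counts, had 110 counts in WT 1 and 0, 3 and 2 counts in WT 2, cKO 1 and cKO 2. The value in WT 1 stood apart from the other WT library. *Esco2*, which encodes an enzyme that acetylates SMC3 in S phase, had 27 counts in each WT library against 2 and 11 in the libraries labelled cKO, with a log2 fold change of -1.91 that did not pass the edgeR test (adjusted p = 0.128). *Esco1*, which encodes the acetyltransferase that acts outside S phase, was at 71.4 and 94.6 CPM in WT and 60.8 and 67.8 CPM in cKO (log2 fold change -0.36, edgeR adjusted p = 0.236). *Smchd1*, an SMC family gene needed for X inactivation, was at 324 and 368 CPM in WT and 246 and 304 CPM in cKO (log2 fold change -0.33, edgeR adjusted p = 0.198). *Lmna*, which encodes lamin A and C, was at 10.1 and 6.95 CPM in WT and 12.8 and 25.7 CPM in cKO (log2 fold change 1.14, edgeR adjusted p = 0.115). These 5 genes were chosen after their values were seen.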
